A study of Mus musculus with 15 samples.

Results

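A set of 8 genes known from monocytes was followed through mouse spleens bearing acute promyelocytic leukaemia. In this disease, APL for short, cells are held at the promyelocyte stage of neutrophil development. The 8 genes were chosen by name as F13a1, Fn1, Csf1r, Ly86, Cx3cr1, Ccr2, Cd14 and Mpeg1, and their values were taken from every array probeset annotated to that symbol alone. Of the 8, 7 had probesets, 118 in all among 229581 on the array, and these 7 are among 16277 genes with a value. Mpeg1, which encodes perforin-2 of macrophage phagosomes, had no such probeset and is not analysed here. The series holds 15 arrays of total RNA from 15 tumours, all spleen of the Bl/6 Taconic strain and all with APL, named by tumour number. The labels name no transgene, treatment, age or healthy control for these samples. Whether each tumour is a different mouse is not stated, and a p-value here reflects only how far these 15 arrays spread, which may be technical in part. The only difference between samples in the labels is the tumour number, which has 2 digits in 5 tumours and 4 digits in 10.

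Monocytes arise in the marrow from myeloid progenitors, next to the line that gives neutrophils, and the spleen keeps a store of them. They are commonly recognised by a growth factor receptor, by chemokine receptors that steer their movement, by receptors that sense bacterial products, and by a set of secreted proteins. Classical mouse monocytes carry much CCR2 and less CX3CR1, and the patrolling kind the reverse. Promyelocytes share an ancestor with monocytes, so some of these genes are also active in granulocyte precursors. In whole spleen RNA, fewer cells of a type and less RNA per cell cannot be told apart.

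Each gene value is a log2 intensity, taken as the median of the probesets of that gene, and errors are SDs over 15 tumours. The levels of different genes are not set against each other, since probes differ in affinity. A gene was called detected where its mean exceeded 6.415, the 40th percentile over all named genes, and values under this limit may be background. All 7 measured genes passed, with 9766 genes in all. Of the 12 listed promyelocyte genes 10 were measured and 10 detected, with Mpo (myeloperoxidase) at 12.42 to 13.30 in every tumour. Of 24 further monocyte genes 24 were measured and 15 detected, among them Lyz2 (lysozyme) at 11.50 ± 0.28 (SD, n = 15) and the phagocyte antigen gene Itgam at 8.81 ± 0.72, while Fcgr1, Ms4a7 and Ace lay under the limit in all 15 tumours. Median intensity per array ran from 107.6 to 128.5. Arrays tumor_9509 and tumor_9514 differed from the rest, with the lowest medians (107.6 and 108.1) and r of 0.949 with each other but at most 0.900 with any other array over detected genes, so results that rest on them are also given without them.

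Csf1r encodes the receptor for CSF1 and IL-34, on which monocytes and macrophages depend. It was lowest at 6.07 in tumor_9509, had a median of 6.85 and was highest at 8.02 in tumor_9504 (mean 6.93 ± 0.53). The values of tumor_9520 (7.57), tumor_9495 (7.51) and tumor_31 (7.49) followed the highest, and tumor_9509 and tumor_9523 (6.25) were the 2 tumours below the detection limit. Of its 30 probesets 18 lay above the detection limit on average, and the 30 varied in how closely they followed each other. Their median r with the other probesets of the gene was 0.61, and 20 of 30 exceeded 0.5. The brightest, probeset 5296087, barely varied, from 10.60 to 11.07 (r = -0.05 with the others), whereas probeset 5566748 ran from 6.85 to 8.85 (r = 0.95).

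Of the chemokine receptor genes, Ccr2 and Cx3cr1 shared 1 of their 3 highest tumours, tumor_9514. Ccr2, the receptor for CCL2 that lets monocytes leave the marrow, was lowest in tumor_9504 (5.70) and tumor_9529 (5.81), had a median of 6.59 and was highest in tumor_9523 (7.51) and tumor_9514 (7.30). Its mean was 6.66 ± 0.47, and between 5.81 and 6.52 there was a gap of 0.72 with 13 tumours above it. Only 2 of its 4 probesets lay above the detection limit on average, and both were highest in tumor_9514. Probesets 5220966 and 5479433, below the limit on average, were highest in tumor_9523, and of all 4 only probeset 5479433 was lowest in tumor_9504. The ranks of these tumours thus rest in part on signal that may be background. Cx3cr1, the fractalkine receptor, varied least of the 7: it was lowest at 6.65 in tumor_9508, had a median of 7.16 and reached 7.60 in tumor_33, with 7.37 in tumor_9514, a 1.94-fold range (SD 0.26). This SD was larger than that of 40.2% of 9452 detected genes with at least 3 probesets. Its 3 probesets had r of -0.06, 0.46 and 0.56 with the others.

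Cd14, the co-receptor that hands bacterial lipopolysaccharide (LPS) to TLR4, was lowest in tumor_9492 at 5.98, had a median of 7.33 and was highest in tumor_31 at 8.41 (mean 7.32 ± 0.64). The lowest 3 tumours, tumor_9492, tumor_9514 (6.33) and tumor_9509 (6.48), were separated by a gap of 0.72 from the other 12, which lay at 7.20 or above. In all 5 probesets of Cd14 tumor_9492 was the lowest tumour, at 6.03 against a highest value of 10 in tumor_31 in probeset 5456550. Ly86 encodes MD-1, the secreted partner of the B cell and myeloid receptor CD180. It was lowest in tumor_9492 as well, at 6.53, had a median of 7.27 and was highest in tumor_9509 at 8.06, a 2.87-fold range (mean 7.29 ± 0.36). That highest tumour led 5 of the 6 Ly86 probesets.

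F13a1 and Fn1 make secreted proteins that meet in clots and matrix: the A subunit of factor XIII cross-links fibrin and fibronectin. F13a1 was above the detection limit in every tumour, lowest at 8.02 in tumor_9500, with a median of 9.35 and a highest value of 10.42 in tumor_36, a 5.28-fold range (mean 9.34 ± 0.72). Close to the highest were tumor_9523 at 10.38 and tumor_9504 at 10.19. All 16 F13a1 probesets agreed, with r of 0.88 to 0.98 with the others, and its SD exceeded that of 97.7% of detected genes with at least 3 probesets. Fn1, fibronectin, was lowest at 5.85 in tumor_9509, had a median of 6.29 and reached 8.67 in tumor_36 (mean 6.55 ± 0.75). It exceeded the detection limit in 5 tumours and not in 10, so it passed the filter through the few in which it was high, and no fold is given. After tumor_36 came tumor_9495 at 7.54 and tumor_9520 at 7.24. In 51 of 54 Fn1 probesets tumor_36 was the highest tumour, such as probeset 5537783, which ran from 5.64 to 10.84.

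**Figure D1:**
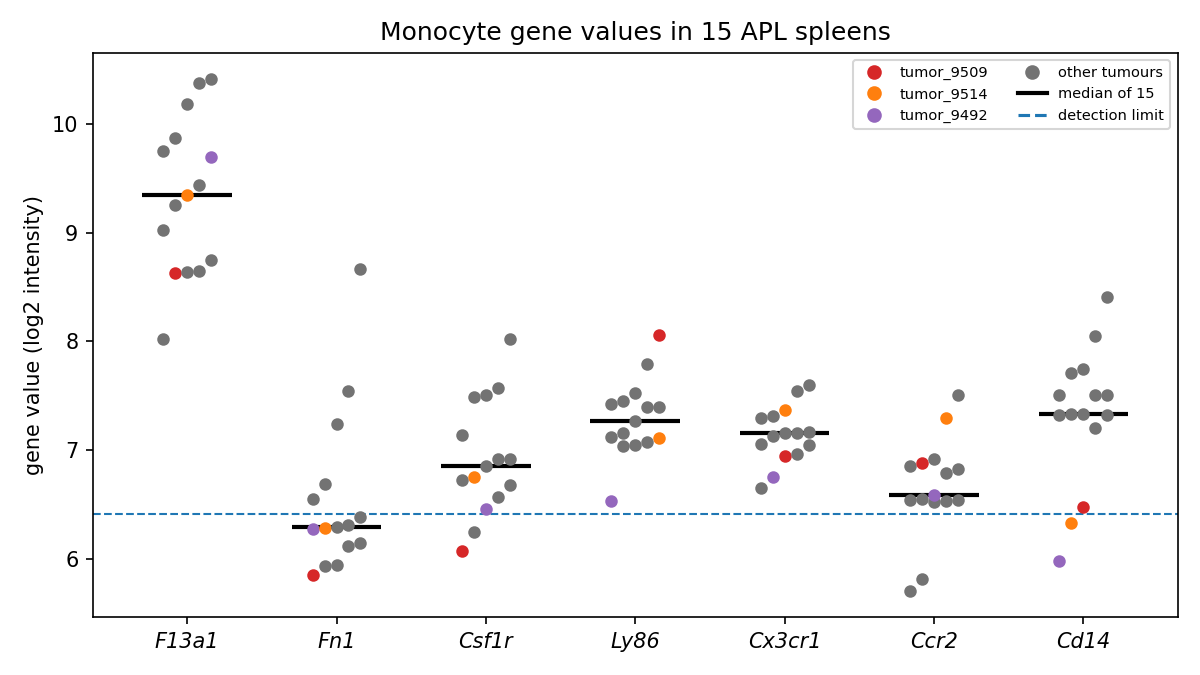
Gene value (log2 intensity) of 7 monocyte genes in 15 tumours. Each point is 1 tumour, black bars are medians and the dashed line is the detection limit of 6.415; Fn1 stands at 8.67 in tumor_36 alone, and the 3 lowest Cd14 values belong to tumor_9492, tumor_9514 and tumor_9509.

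**Figure D2:**
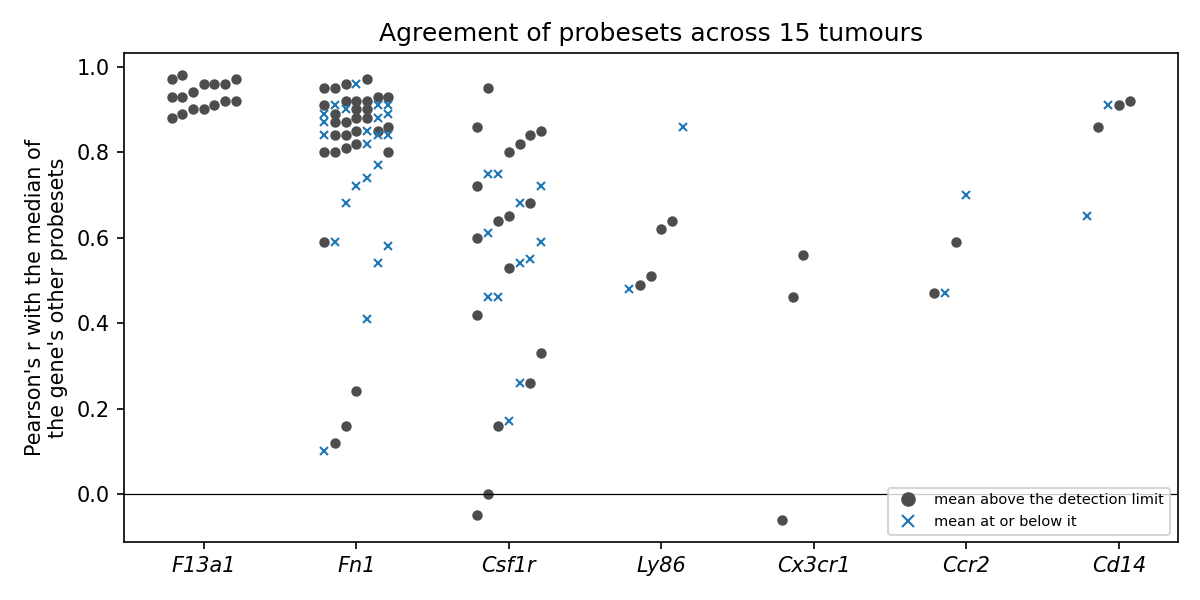
Pearson's r over 15 tumours between each probeset and the median of the other probesets of its gene, with circles for probesets whose mean exceeds the detection limit and crosses for the rest. The 16 F13a1 probesets lie between 0.88 and 0.98, and the 30 of Csf1r between -0.05 and 0.95.

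How well the probes of a gene agree limits what its value can show. Split-half r, the correlation over tumours between the means of odd and even probesets, was 0.99 for F13a1, 0.98 for Fn1, 0.93 for Ly86, 0.92 for Csf1r and 0.88 for Cd14. It was lower for Ccr2 (0.70) and Cx3cr1 (0.56), with a median of 0.78 over 9452 detected genes. The SDs of F13a1, Fn1, Csf1r, Cd14 and Ccr2 exceeded those of 86.0% or more of these genes, whose median SD was 0.29, and that of Ly86 exceeded 67.4%.

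No tumour was high or low in all 7 genes. The tumour with the highest mean deviation, tumor_36 at 0.49 above the 15-tumour means, was among the 3 highest for F13a1 and Fn1 and above the mean in 6 of 7 genes. The library of tumor_9504 was among the 3 highest for F13a1, Csf1r and Cd14, and lowest of all for Ccr2. The tumour tumor_9523 had high F13a1, Ccr2 and Cd14 but the second lowest Csf1r. At the low end, tumor_9492 (mean deviation -0.42) was among the 3 lowest for Csf1r, Ly86, Cx3cr1 and Cd14 while its F13a1 stood at 9.70, above the median. The array of tumor_9509, which stood apart, was among the 3 lowest for 5 genes and the highest for Ly86.

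**Figure D3:**
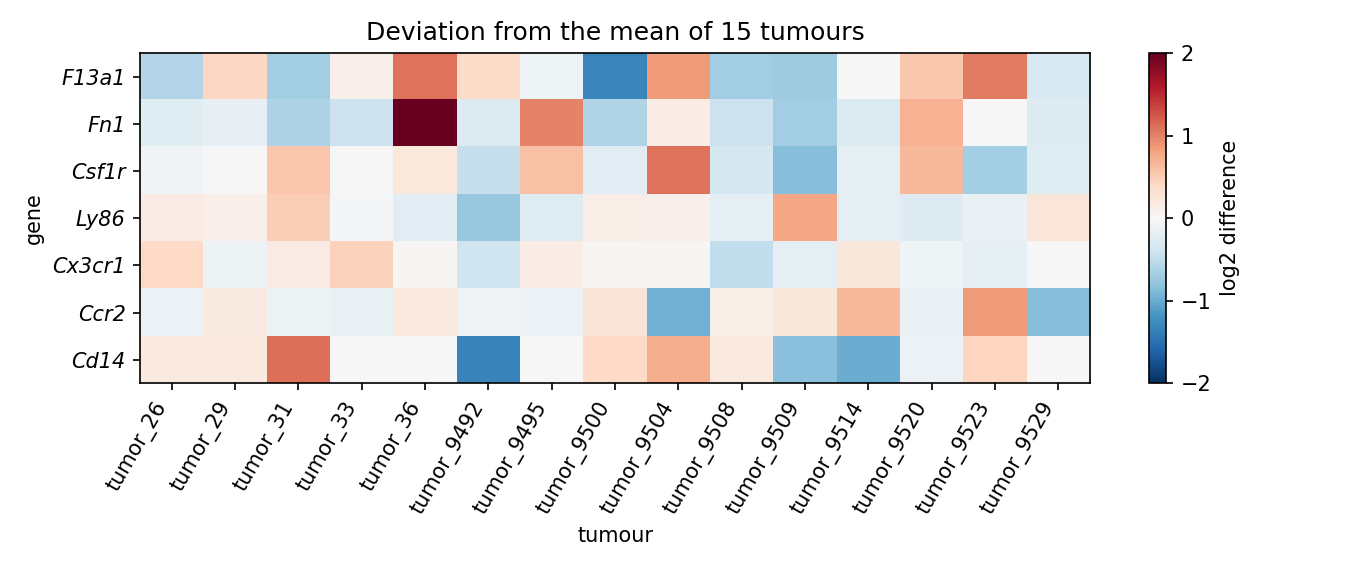
Difference of each gene's log2 value from its mean over 15 tumours, with genes in rows and tumours in columns in order of their number. Red is higher and blue lower; no column has 1 colour throughout, and tumor_36 shows its highest values in F13a1 and Fn1.

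Whether the genes varied together was tested with limma, by regressing every other detected gene on 1 member's values over the 15 tumours, with Benjamini-Hochberg adjustment over the 9765 genes of each regression. A pair was called where both of its regressions gave an adjusted p under 0.05. Of 21 pairs 0 were called, and 4 had an unadjusted limma p under 0.05 in both regressions. Few of all genes were called either: 0.00% rose and 0.00% fell with F13a1, Ly86, Cx3cr1, Ccr2 or Cd14, 0.0205% rose and 0.00% fell with Fn1, and 0.0819% rose and 0.0102% fell with Csf1r. Pearson's r was above 0 in 11 pairs and below 0 in 10, with a median of 0.02 and a range from -0.56 to 0.63. By permutation, 2 pairs had p under 0.05 for r and 5 for rho, before any adjustment over the 21.

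**Figure D4:**
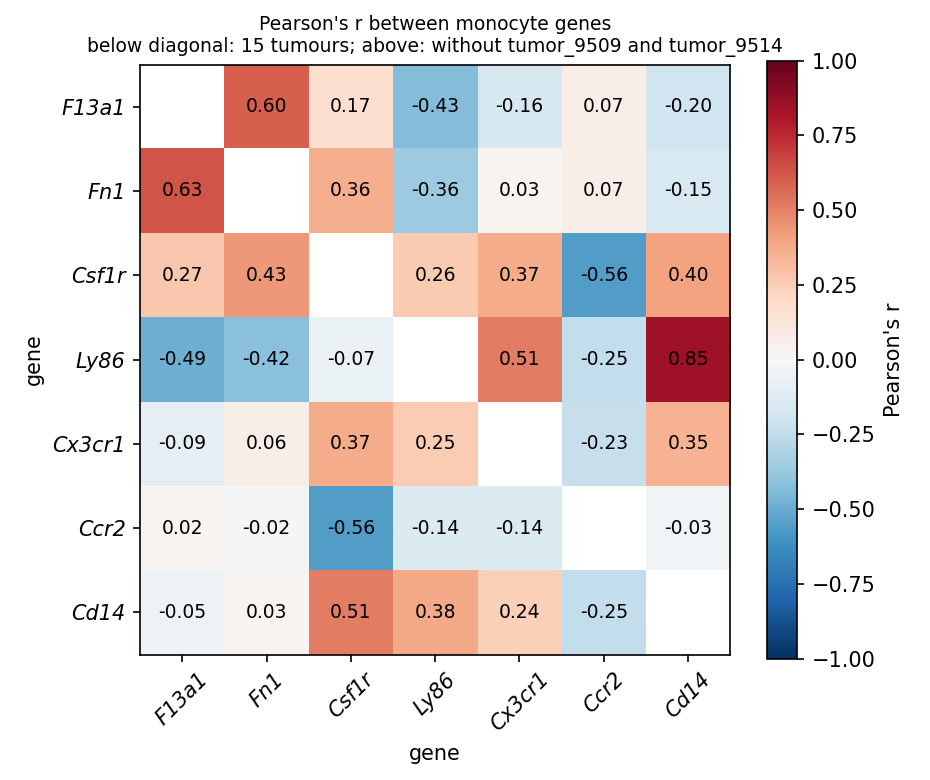
Pearson's r between the 7 genes, over 15 tumours below the diagonal and over 13 tumours, without tumor_9509 and tumor_9514, above it. Values over 15 tumours range from -0.56 for Csf1r with Ccr2 to 0.63 for F13a1 with Fn1; the highest without the 2 arrays is 0.85 for Ly86 with Cd14.

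The highest r joined F13a1 with Fn1, at 0.63 (permutation p = 0.00863), with Spearman's rho of 0.79 (permutation p = 0.00085). Fn1 was at or below the detection limit in 10 tumours, whose order may be background, and rho uses that order. The limma adjusted p of this pair was at least 0.999 in both regressions, in which 1.00% of genes rose with F13a1 and 1.65% with Fn1 at an unadjusted p under 0.05. Without tumor_9500 and tumor_36, the tumours farthest from the F13a1 median, r was 0.48, and it was 0.53 among the 10 tumours of 4-digit number alone and 0.60 when tumor_9509 and tumor_9514 were left out. Both genes were highest in tumor_36, but tumor_9523 had F13a1 at 10.38 and Fn1 at 6.55, and tumor_9495 had 9.26 and 7.54.

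Csf1r and Ccr2, the growth factor receptor and the chemokine receptor of classical monocytes, ran opposite ways, with r = -0.56 (permutation p = 0.0317) and rho = -0.58 (permutation p = 0.0265). The limma adjusted p was 0.448 and 0.677, against 1.70% of genes lower with Csf1r and 5.0% lower with Ccr2 at an unadjusted p under 0.05. Leaving out tumor_9504, highest in Csf1r and lowest in Ccr2, left r at -0.35, and leaving out tumor_9529 gave -0.72. Among the Ccr2 probesets, tumor_9504 was lowest only in one whose mean lay below the detection limit. With only probesets above the 25th percentile r was -0.65, and with the mean over probesets it was -0.61. With centred tumours it was -0.58 and with quantile normalization -0.54. Csf1r and Cd14 had r = 0.51 (permutation p = 0.053) but rho of 0.25 (permutation p = 0.366), with limma adjusted p of 0.28 and 0.502, and 6.93% and 13.6% of genes were higher with Csf1r and with Cd14 at an unadjusted p under 0.05. That relation had r = 0.29 without tumor_9504 and tumor_9509.

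F13a1 and Ly86 lie next to each other among protein-coding genes on mouse chromosome 13: the RefSeq gene table lists 5 genes between them, 0 of them protein-coding. These neighbours ran opposite ways, with r = -0.49 (permutation p = 0.0641), rho = -0.58 (permutation p = 0.0244) and limma adjusted p of at least 0.899. In these regressions 1.56% of genes fell with F13a1 and 3.56% with Ly86 at an unadjusted p under 0.05. The value was -0.43 without tumor_9509 and tumor_9514, and -0.42 among the 4-digit tumours. The genes lie on opposite strands with their starts at the ends nearest each other, so the 250 bases before each start are shown to compare them, from RefSeq on GRCm38.p6, 5′ to 3′ on the strand of the gene, with matches of GAGGAA in capitals. The F13a1 stretch is chr13:37050245-37050494 on the minus strand and the Ly86 stretch chr13:37345095-37345344 on the plus strand. RefSeq lists a further F13a1 start, not shown, with 0 matches.
F13a1: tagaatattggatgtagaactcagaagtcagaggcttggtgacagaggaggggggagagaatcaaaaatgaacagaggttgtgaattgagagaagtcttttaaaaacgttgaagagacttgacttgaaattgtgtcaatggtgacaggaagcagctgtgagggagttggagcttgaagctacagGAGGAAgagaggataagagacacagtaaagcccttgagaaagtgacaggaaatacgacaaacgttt
Ly86: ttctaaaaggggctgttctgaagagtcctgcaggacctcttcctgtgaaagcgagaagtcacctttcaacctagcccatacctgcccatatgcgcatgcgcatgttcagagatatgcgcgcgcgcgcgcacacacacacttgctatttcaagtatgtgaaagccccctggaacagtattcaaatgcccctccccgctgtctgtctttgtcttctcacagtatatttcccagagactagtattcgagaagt
GAGGAA, a form of the letters bound by the monocyte and granulocyte factor PU.1, was searched on both strands. It occurred 1 time before F13a1, 66 bases before the start, and 0 times before Ly86; 23.3% of 32851 promoter stretches of this length hold it. Neither stretch held TTGCNNAA, a C/EBP motif (9.56% of stretches), or an interferon regulatory factor motif, GAAA followed after any 2 bases by GAAA (2.98%). A match of letters is a description of the sequence and not a site.

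Ly86 and Cd14 depended on a few arrays. Over 15 tumours r was 0.38 (permutation p = 0.166) and rho 0.40 (permutation p = 0.14), with limma adjusted p of 0.427 and 0.899. Without tumor_9509 and tumor_9514 it was 0.85, with limma adjusted p of 0.184 and 0.428. Without tumor_9492, in which both genes were lowest, it was 0.05, and without all 3 of these tumours 0.67 (adjusted p of 0.537 and 0.627 in limma). The remaining 16 pairs had r between -0.42 and 0.43, and their permutation p for r was 0.106 or higher. By rho, Fn1 ran with Csf1r (0.53, permutation p = 0.0445) and against Ly86 (-0.55, permutation p = 0.0362). Both rho values use the order of the 10 tumours with Fn1 at or below the detection limit, which may be background. Fn1 with Csf1r had r = 0.43 over all tumours and 0.72 among the 4-digit ones.

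**Figure D5:**
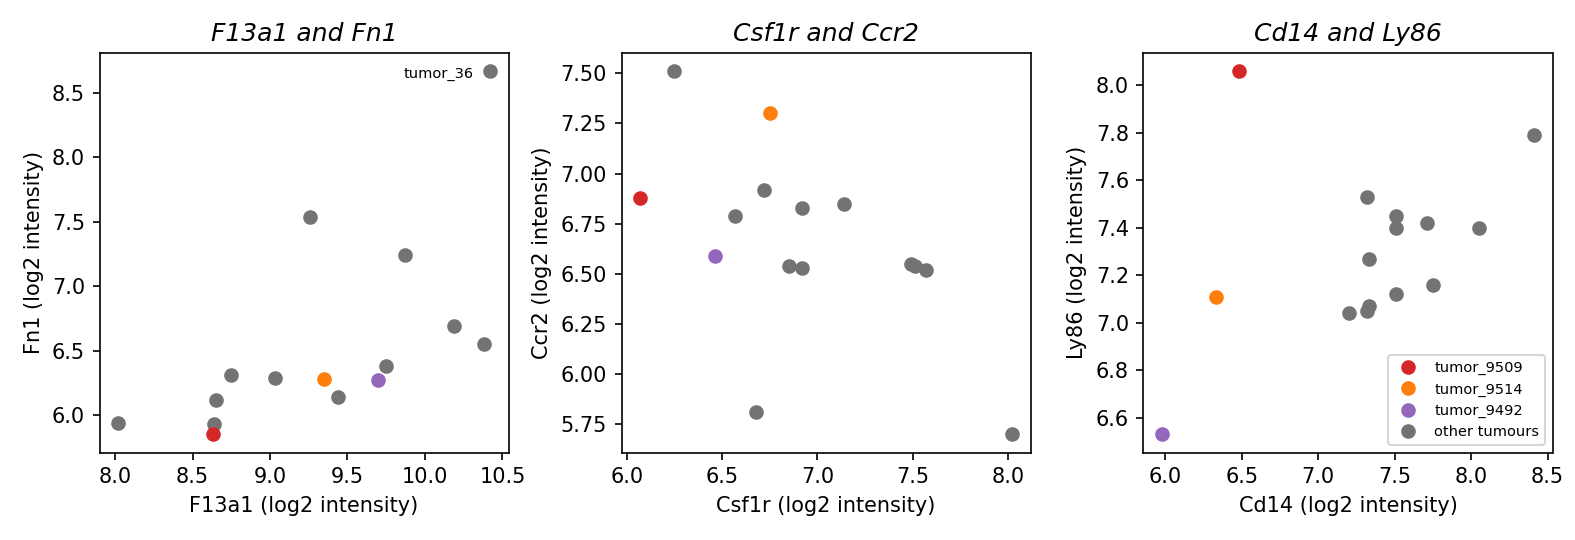
Values (log2 intensity) of 3 pairs of genes in 15 tumours, 1 point per tumour. F13a1 and Fn1 (r = 0.63) were both highest in tumor_36, Csf1r and Ccr2 had r = -0.56, and for Cd14 and Ly86 (r = 0.38) tumor_9509 lies above and tumor_9492 below the other points.

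Csf1r was the gene with the most calls among all genes: 8 rose and 1 fell with it. Il1r2, the decoy receptor for interleukin-1, ran from 5.69 to 9.59 with r = 0.85 with Csf1r (limma adjusted p = 0.0357) and rho of 0.79. Ptgs1 (cyclooxygenase-1) had r = 0.85, the amino acid transporter gene Slc43a2 0.91, Crispld2 0.85, N4bp2l1 0.84 and Ndrg1 0.83. Unc93b1, which carries Toll-like receptors to endosomes, had r = 0.85, and Tgfbi, a matrix protein gene common in monocytes, 0.83. Nkg7, a granule membrane protein gene, had r = -0.82 and ran from 9.93 to 12.16. The limma adjusted p was 0.0441 for each of these 8 genes, and permutation p for r was at most 0.00021 for all 9. The 9 were picked from all genes tested by their fit to Csf1r in these same arrays, so that permutation p adds no support. Without tumor_9504 and tumor_9509, r stayed between 0.69 and 0.83 for the 8 genes that rose and was -0.67 for Nkg7. The adjusted p of these genes lay close to the threshold. Left out one at a time, limma called 0 genes with Csf1r without tumor_9504, tumor_9509, tumor_36, tumor_29 or tumor_9520, 1 without tumor_9523, 2 without tumor_31, tumor_9495, tumor_9492 or tumor_9529 and 5 without tumor_9508. Without tumor_36 or tumor_29, r was 0.83 to 0.92 for the 8 genes and -0.82 for Nkg7, with limma adjusted p of 0.0636 to 0.0737. For the 9 genes limma adjusted p was 0.105 to 0.207 without tumor_9509 and 0.125 to 0.147 without tumor_9520. The relations moved most without tumor_9504, where r was 0.76 to 0.87 and -0.72, with limma adjusted p of 0.309 to 0.380. Without tumor_9509 and tumor_9514 together 0 were called, while r was 0.80 to 0.90 for the 8 and -0.80 for Nkg7.

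With Fn1, which lay above the detection limit in 5 tumours alone, 2 genes were called, Tmem178 (r = 0.86, limma adjusted p = 0.0276) and Gdpd3 (r = 0.85, limma adjusted p = 0.0276). Their rho was 0.42 and 0.48. Without tumor_36 r was 0.58 and 0.53 (limma adjusted p = 0.996 for both), so both calls rest on that tumour. Without tumor_36 and tumor_9495 it was 0.27 and 0.38, and without tumor_9495 alone 0.85 and 0.88, with both genes called. Neither was called without tumor_9500, tumor_33 or tumor_9529, and Gdpd3 was not without tumor_9504, but there r was 0.84 to 0.86, with limma adjusted p of 0.0522 to 0.0781. Next in likeness to Fn1 were Tmem38b (0.86), Mrgpra1 (0.80) and Bace1 (0.80), which were not called.

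For the other genes limma called 0 of 9765, with 250 genes at an unadjusted p under 0.05 for F13a1, 514 for Ly86, 240 for Cx3cr1, 704 for Ccr2 and 1501 for Cd14. Without tumor_9509 and tumor_9514 these counts were 413 for F13a1, 575 for Ly86, 384 for Cx3cr1, 499 for Ccr2 and 540 for Cd14. By direction, the share over all 15 tumours was 1.41% higher and 1.04% lower for Cx3cr1 and 2.21% higher for Ccr2, beside 1.71% lower for Fn1. The genes most like each by r over 15 tumours are given as a description. For F13a1 they were Natd1 (0.75), 2310022B05Rik (0.74), Elac1 (0.74), E4f1 (0.71) and Capn15 (0.68). For Cx3cr1 they were Btf3l4 (0.81), Ppp3r1 (0.81), Bhlhe22 (0.78), Ccng2 (0.77) and Mtmr6 (0.75), and for Ccr2 Tmem64 (0.83), Pax1 (0.78), Prrx2 (0.77), Evx2 (0.77) and Yme1l1 (0.76). For Cd14 they were Trp53bp2 (0.84), the DNA-sensing adaptor gene Sting1 (0.83), Etfbkmt (0.82), Dnajc8 (0.82) and Emb (0.80). The Csf1r order was Slc43a2, Gsn (0.85), Il1r2, Crispld2 and Ptgs1.

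Cd14 depended on tumor_9492 in another way. Without that tumour 1116 of 9765 genes (11.4%) were called with Cd14, of which 1101 rose, against 0 with it. Leaving out tumor_33 gave 2 calls, and tumor_31 or tumor_9495 gave 1 each. Without tumor_9492, Cd14 was lowest in tumor_9509 and tumor_9514, the arrays that differed from the rest. Without all 3 tumours, a choice made after seeing the data, 1 gene was called. This was Ms4a3, a gene of granulocyte and monocyte progenitors, which fell with Cd14 (r = -0.93, limma adjusted p = 0.0157). Over all tumours 0 of 10 detected promyelocyte genes, Ms4a3 among them, had an unadjusted limma p under 0.05 with Cd14.

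The genes most like Ly86 were known from B cells and antigen-presenting cells. They were H2-Aa of MHC class II (r = 0.83), Cd9 (0.78), the immunoglobulin gene Ighm (0.77), Cd79a of the B cell receptor (0.77) and the myeloid inhibitory receptor gene Lilrb4a (0.77), all with a limma adjusted p of 0.432. Over the tumours H2-Aa ran from 7.40 to 9.47 and Cd79a from 7.27 to 9.55. Of the 5 detected genes of the B cell list 0 were called, and 4 ran with Ly86 at an unadjusted p under 0.05, against 1.70% of all genes; their median r was 0.73, against -0.10 over all genes. Of 12 listed B cell genes 10 were measured, and Ms4a1, Fcer2a, Cr2, Cd22 and Ebf1 were under the detection limit on average. The dendritic cell list, which holds the class II genes, gave 4 of 9 at that unadjusted threshold and a median r of 0.38. With the mean over probesets in place of the median, limma called 5 genes with Ly86: H2-Aa, H2-Ab1, H2-Eb1, St6gal1 and Tspan13 (adjusted p of 0.0225 to 0.0474). Without tumor_9509, highest in Ly86, Lilrb4a was called (r = 0.87, limma adjusted p = 0.0347). The part of B cells in the Ly86 values was not tested.

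Of 17 lists of related genes and cell type markers, 14 had no gene called with any of the 7. The 2 called genes were Tgfbi, in the list of fibronectin receptors, transglutaminases and fibrinogen, and Nkg7, in both the NK cell and promyelocyte lists, all with Csf1r. Of the 15 other monocyte genes detected, 0 were called in limma with any of the 7, and at an unadjusted p under 0.05 the most were 2, with Csf1r and with Cx3cr1, beside 6.93% and 1.41% of all genes higher with these 2. The closest were Ctss (cathepsin S) with Csf1r at r = 0.63, Lyz2 with Cx3cr1 at 0.62 and Cd300a with Ly86 at 0.60. The most variable of them were Cybb (8.67 ± 1.27), the NADPH oxidase subunit, and Ms4a6c (8.98 ± 1.23). Among 14 detected monocyte transcription factor genes 0 were called. Irf8, which steers progenitors to monocytes, lay between 6.36 and 7.10, Klf4 between 6.55 and 7.64 and Spi1, which encodes PU.1, between 8.61 and 10.19. The factor gene closest to any of the 7 was Stat3, at r = 0.68 with Cd14 and 0.46 without tumor_9509 and tumor_9514. Tfec varied most, from 4.99 to 9.83.

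Of the ligand genes, Csf1 lay at 6.45 ± 0.28, above the detection limit in 6 of 15 tumours. Il34 was under that limit on average, as were Ccl2, Ccl8 and Ccl12, in all 15 tumours for the last 3. Cx3cl1, the ligand of CX3CR1, lay at 6.43 ± 0.23, above the limit in 7 tumours, and Ccl7 at 6.83 ± 0.22, above it in 14. Among the partners of the receptors, Tyrobp, an adaptor of myeloid receptors, ran from 12.09 to 12.72. Tlr4 ran from 5.09 to 8.13 and Ly96, which encodes the TLR4 partner MD-2, from 5.17 to 8.25. Tlr4 exceeded the limit in 8 tumours and Ly96 in 6, so the r values of both may rest in part on background. Tlr4 had r = 0.66 with Csf1r, Tlr2 0.59 and Ly96 -0.51, all uncalled (limma adjusted p of 0.383 to 0.49), and the median r of the 10 detected LPS receptor genes with Csf1r was 0.40, against 0.11 over all genes. Cd180, the partner of Ly86, lay at 7.45 ± 0.45. Near Ccr2 on chromosome 9 lies Ccr1, which varied from 4.78 to 8.45, above the limit in 10 of 15 tumours, and had r = 0.30 with Ccr2. Among the measured neighbours within 3 RefSeq genes of a member, the largest r was 0.76, for Tmco6 beside Cd14. E230025N22Rik had -0.53 with Cd14 and Hmgxb3 0.50 with Csf1r, and the rest lay between -0.34 and 0.44. None of these neighbours was called. F13b, Fga, Fgb and Fgg, the other factor XIII subunit and the fibrinogen chains, were under the limit in all 15 tumours.

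Markers of other spleen cells moved with some of the 7 without a call. Of 10 detected red pulp macrophage genes, 5 ran with Cd14 and 3 with Csf1r at an unadjusted p under 0.05, beside 13.6% and 6.93% of all genes. The median r of this list was 0.37 with Cd14 and 0.16 with Csf1r, against 0.21 and 0.11 over all genes. The list counts and shares given here are over all 15 tumours. Without tumor_9509 and tumor_9514, 540 genes had an unadjusted limma p under 0.05 with Cd14 in either direction, against 1501 with them. Cd68 with Csf1r had r = 0.64 and Adgre1, a macrophage surface antigen gene, 0.55, whereas Cd14 with Vcam1 had 0.60, and 0.35 without tumor_9509 and tumor_9514. Spic, Cd163, Cd5l, Mertk, Marco and Timd4 of that list were under the limit in all 15 tumours. Erythroid genes ran against Cd14, 3 of 5 at that threshold, beside 1.74% of all genes, with Hbb-b1 at r = -0.61, and -0.40 without tumor_9509 and tumor_9514. With F13a1, 2 of 7 T cell genes and 2 of 5 B cell genes were lower at the unadjusted threshold, beside 1.56% of all genes, and the median r of the lists was -0.09 and -0.33. Of these Cd3d had r = -0.64 and Cd3g -0.59, both uncalled. With Ly86, 2 of 7 T cell genes were higher, beside 1.70% of all genes, with a median r of 0.38. Megakaryocytes also make F13a1. Of 5 detected megakaryocyte genes 0 reached that threshold with F13a1, beside 1.00% of all genes higher and 1.56% lower, and their median r was -0.10. Of 8 detected endothelial and stromal genes 0 reached it with Fn1, beside 1.65% higher and 1.71% lower. At such shares a count of 0 in lists this short is near the background and says nothing of these cells. The median r of the 15 secondary granule and mature neutrophil genes was 0.31 with Cx3cr1 and -0.24 with F13a1, and of the 7 detected basophil, mast cell and eosinophil genes -0.35 with Fn1. The list of CSF1 receptor ligands and signalling had 4 of 9 genes higher with Cd14 at the unadjusted threshold, beside 13.6% of all genes, and the chemokine list 2 of 5 with Ly86, beside 1.70%. In the first of these lists Pik3cd had r = 0.65 with Cd14, Inpp5d 0.51 and Ptpn6 0.50. Without tumor_9509 and tumor_9514 these values were 0.45, 0.10 and 0.06. The part of other cells in these values was not tested.

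By tumour number 0 of the 7 genes were called. In limma 0 of 9766 genes (0.00%) were called between the 5 tumours with a 2-digit and the 10 with a 4-digit number, and 233 (2.39%) had an unadjusted p under 0.05. Cx3cr1 was the 1 member among these, at 7.33 ± 0.24 (n = 5) against 7.05 ± 0.23 (n = 10), a difference of 0.28 ± 0.13 (SE, limma adjusted p = 1.00), and both groups overlapped. The difference for Cd14 was 0.45 ± 0.30 (SE), with 7.33 to 8.41 in the 2-digit and 5.98 to 8.05 in the 4-digit tumours. For the other 5 genes it lay between 0.00 and 0.21.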

How the data were processed

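Total RNA of 15 APL spleens was measured on Affymetrix Mouse Exon 1.0 ST arrays, by the labels. The authors deposited 1 linear intensity per probeset and array (2.38 to 19380.5); RMA and mm9 are named without version in the submitters' processing notes. Scanner files were not used here, and the number of arrays limits the precision.

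Intensities were log2 transformed. Of 229581 probesets 208397 had 1 symbol, 3965 several and 17219 none; probesets of 1 symbol alone entered. The RefSeq table of GRCm38.p6 held 14132 of their 16299 symbols as current names, gave newer names to 2124, and left 43 unchanged. Of the 8 monocyte genes 5 matched RefSeq's promoter table. The genes and the 17 lists (224 genes, 19 without a probeset, 146 of the non-members detected) were chosen with earlier results of these data known.

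Named were the 8 genes; per gene the 5 most like it by r, among those detected on 3 or more probesets; per list up to 3 genes with the largest absolute r and 2 with the largest SD; and 3 RefSeq neighbours on each side. Other genes were named after their values were seen. Regressions used limma (lmFit, eBayes with trend) and were tested on simulated data. Permutation tests were two-sided with 100000 resamples. Alternatives were the mean over probesets, quantile normalization, centring, only the brighter probesets (25th percentile), other filters, eBayes without trend, and tumours left out; those for the genes called with each member were chosen after seeing the data. Versions: limma 3.58.1 in R 4.3.3; scipy 1.17.1, pandas 2.3.3 and numpy 2.4.6 in Python 3.11.15; matplotlib 3.10.9.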

Additional observations from a re-analysis of the deposited data

How the results depend on the processing

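No pair of the 7 genes was called, and none of the 7 by tumour number, under any alternative run, including the one without tumor_9492, tumor_9509 and tumor_9514, which was chosen after seeing the data. Single tumours left out aside, 0.00% to 0.0541% of all genes were called with a member under these alternatives. At such shares 0 called pairs is near the background and says nothing particular of these genes. At the 60th percentile filter the members left gave 3 pairs, and with probesets above the 25th percentile 15.

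The alternatives for genes called with each member were chosen after seeing the data. The count for Csf1r, 9, became 0 with the mean over probesets, quantile normalization, no filter on dim genes, eBayes without trend, without tumor_9509 and tumor_9514, or without these and tumor_9492. It was 5 with probesets above the 25th percentile, 3 with centred tumours, 1 among the 4-digit tumours and 0 to 12 leaving out 1 tumour. For Fn1 the 2 calls became 0 with the mean, with no filter, within the 4-digit tumours or without the 3 tumours, 1 without tumor_9509 and tumor_9514, and 0 to 3 leaving out 1 tumour. For Ly86 the 0 became 5 with the mean, 1 with brighter probesets and 0 to 1 leaving out 1 tumour. For Cd14 the 0 became 1 with the mean and 1 without the 3 tumours, and 0 to 1116 leaving out 1 tumour, the highest without tumor_9492. The cause was not tested.

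Of 189 pair values under alternatives 25 had the other sign, in 9 pairs whose r was -0.14 to 0.06. F13a1 with Cx3cr1 was 0.14 with the mean, 0.04 within the 4-digit tumours and -0.29 to 0.00 leaving out 1 tumour. F13a1 with Ccr2 was -0.09 within the 4-digit tumours and -0.23 to 0.26 leaving out 1, and F13a1 with Cd14 0.09 within the 4-digit tumours, 0.04 without the 2 farthest tumours and -0.17 to 0.09 leaving out 1. Fn1 with Cx3cr1 was -0.06 without the 2 farthest and -0.03 to 0.15 leaving out 1. Fn1 with Ccr2 was 0.03 with the mean, 0.07 without tumor_9509 and tumor_9514 and -0.18 to 0.02 leaving out 1. Fn1 with Cd14 was -0.07 with the mean, -0.01 with brighter probesets, -0.02 with centring and with quantile normalization, -0.15 without tumor_9509 and tumor_9514 and -0.07 to 0.16 leaving out 1. Csf1r with Ly86 was 0.25 with the mean, 0.26 without tumor_9509 and tumor_9514, 0.23 without the 2 farthest and -0.27 to 0.27 leaving out 1. With quantile normalization Ly86 with Ccr2 was 0.02 and Cx3cr1 with Ccr2 0.03. No paired analysis was possible because all samples form 1 group. Signal near background limits Fn1, at or below the detection limit in 10 tumours, and Csf1r, Ccr2 and Cd14, in 2 tumours each. Only 2 of the 4 Ccr2 probesets lay above that limit on average, with 18 of 30 for Csf1r, 31 of 54 for Fn1, 3 of 5 for Cd14 and 4 of 6 for Ly86. For F13a1 and Cx3cr1 all did.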
